A study of Mus musculus with 24 samples.

Results

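The effect of a Smarca4 guide RNA on open chromatin was read in Utx wild-type (WT) mouse blood progenitors, as 4 of the 24 libraries of the study: the 2 ATAC-seq libraries that carry the guide, against the 2 with an empty construct. All 4 come from lineage-negative bone marrow of C57BL/6 mice with intact Utx and Cas9, and the guide is labelled gRNA_Smarca4_2. They were chosen by their labels as set B, Utx WT; the other libraries used here are the 2 Smarca4 gRNA and 2 empty libraries of the same set in Utx knockout (KO) cells with Cas9, the 2 Chd4 gRNA and 2 empty libraries of a separate Utx WT set with Cas9, and WT ChIP-seq lists of PU.1 (3) and H3K4me1 (2). A growth protocol given with the Chd4 set, which names the editing of Brg1, describes 7 days in semi-solid M3434 medium, 5 days in liquid culture and ATAC-seq 6 days after transduction. The labels do not give the share of cells edited. They do not say that replicates came from different animals or cultures, and p-values here therefore measure the spread between these samples. Each Smarca4 gRNA library may mix edited and unedited cells.

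Smarca4 encodes Brg1, an ATPase that drives the BAF (SWI/SNF) complex, which slides and evicts nucleosomes. In blood progenitors BAF complexes keep enhancers and promoters accessible, together with factors such as PU.1, an ETS family protein, and the GATA and RUNX factors. ATAC-seq marks accessible DNA by the insertion sites of a transposase, and peaks are the stretches where insertions pile up. H3K4me1 is a histone mark of enhancers.

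The deposited lists hold only the start and end of each peak, with no count, so depth is unknown and a peak's presence and its width in base pairs (bp) are the measures available. Peaks of the 4 libraries were merged into 59756 regions. A region is called lost when both empty libraries and neither Smarca4 gRNA library have a peak, and gained when only the Smarca4 gRNA libraries, both of them, have one. It is kept when all 4 have a peak, and mixed otherwise. Since the Smarca4 gRNA lists are shorter, each count is also given at equal list length, with every list trimmed to its 42015 widest peaks. The narrowest peaks left were then 200 and 240 bp in Smarca4 gRNA lists and 269 and 287 bp in empty lists. A region gained at equal length can therefore still have a narrower peak in an empty library. The lists say nothing of whether the guide cut its target. The 2 regions at Smarca4 were kept, and the one over its start measured 1230 and 1321 bp in Smarca4 gRNA libraries and 1145 and 1332 bp in empty libraries. A peak at the gene does not check editing. Smarca2, the other BAF ATPase gene, had 7 kept regions of 8 and Arid1a, a BAF subunit gene, 6 of 7. Kdm6a, which encodes Utx, had 3 kept of 5, and none of these genes had a lost or gained region.

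Promoters stand first because they tie a region to its gene. Promoter windows from RefSeq (GRCm38.p6, from 250 bases before to 50 after a start site) number 32851, of which 12640 met a kept region, 165 a lost region and 19 a gained region without a kept one. The 18 lists of lineage and regulatory genes hold 332 genes, 263 of them with a window. Over all genes with a window, 150 of 27025 had one that met a lost region. Among the list genes 6 windows met a lost region: those of Flt3, Gp9, Clec4e, Rgs13, Dpf1 and Tcf7. The first 3 were also lost at equal list length. Flt3 is a cytokine receptor of early progenitors, Gp9 a platelet adhesion receptor subunit, Clec4e an activating receptor of macrophages and Rgs13 a G-protein regulator of mast cells. Shown beside them are Tlr3, an RNA sensor whose promoter was gained, and Gata1, the erythroid and megakaryocytic factor, whose promoter peak was kept but narrower in both Smarca4 gRNA libraries than in both empty ones. These 6 were chosen after their values were seen. Flt3 lies at chr5:147400440-147400739 and Clec4e at chr6:123289822-123290121, both on the minus strand. Gp9 lies at chr6:87777820-87778119 on the plus strand. Rgs13 lies at chr1:144177323-144177622, Tlr3 at chr8:45410331-45410630 and Gata1 at chrX:7967861-7968160, all on the minus strand. Capitals mark matches on either strand: AGATAA for the GATA factors, CGGAAG for the ETS family, GAGGAAG for PU.1 itself, TGTGGT for the RUNX factors and TGANTCA for the AP-1 factors, none of which holds another.
Flt3: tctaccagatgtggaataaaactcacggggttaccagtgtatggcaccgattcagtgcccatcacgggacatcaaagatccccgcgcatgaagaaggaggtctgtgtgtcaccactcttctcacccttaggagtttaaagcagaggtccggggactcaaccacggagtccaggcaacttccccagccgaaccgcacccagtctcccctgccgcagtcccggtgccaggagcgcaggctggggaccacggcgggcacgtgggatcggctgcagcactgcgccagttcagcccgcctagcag
Gp9: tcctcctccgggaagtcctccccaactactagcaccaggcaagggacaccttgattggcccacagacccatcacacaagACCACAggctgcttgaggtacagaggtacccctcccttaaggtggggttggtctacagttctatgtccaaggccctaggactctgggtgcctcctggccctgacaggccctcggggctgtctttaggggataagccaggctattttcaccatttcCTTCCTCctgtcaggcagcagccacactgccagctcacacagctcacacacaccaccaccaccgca
Clec4e: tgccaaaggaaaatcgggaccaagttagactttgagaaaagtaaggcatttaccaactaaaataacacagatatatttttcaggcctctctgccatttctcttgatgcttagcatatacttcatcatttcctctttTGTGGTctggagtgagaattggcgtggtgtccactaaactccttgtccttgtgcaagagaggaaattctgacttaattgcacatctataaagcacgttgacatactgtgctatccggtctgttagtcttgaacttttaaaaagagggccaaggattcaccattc
Rgs13: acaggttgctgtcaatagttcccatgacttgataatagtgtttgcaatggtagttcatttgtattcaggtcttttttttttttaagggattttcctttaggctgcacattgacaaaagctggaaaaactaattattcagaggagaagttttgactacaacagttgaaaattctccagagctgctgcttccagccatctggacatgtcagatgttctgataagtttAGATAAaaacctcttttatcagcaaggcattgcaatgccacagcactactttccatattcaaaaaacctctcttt
Tlr3: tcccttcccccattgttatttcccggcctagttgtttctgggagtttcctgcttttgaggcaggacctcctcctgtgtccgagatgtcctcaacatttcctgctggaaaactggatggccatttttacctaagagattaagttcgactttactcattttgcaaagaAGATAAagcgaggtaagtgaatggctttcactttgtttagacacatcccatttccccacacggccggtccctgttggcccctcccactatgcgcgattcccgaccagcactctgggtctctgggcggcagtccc
Gata1: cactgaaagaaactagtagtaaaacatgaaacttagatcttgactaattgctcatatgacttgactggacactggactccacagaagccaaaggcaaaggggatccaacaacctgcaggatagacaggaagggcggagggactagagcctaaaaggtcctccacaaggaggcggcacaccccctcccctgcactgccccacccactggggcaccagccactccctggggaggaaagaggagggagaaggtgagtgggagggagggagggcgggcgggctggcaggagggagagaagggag

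The Gp9 window holds 1 PU.1 and 1 RUNX match, Clec4e 1 RUNX match, and Rgs13 and Tlr3 1 GATA match each, while Flt3 and Gata1 hold none of the 5. TGTGGT stood in 23.0% of lost windows, 15.8% of the 19 gained windows, 12.1% of kept windows and 16.8% of all windows. CGGAAG stood in 12.7% of lost, 5.26% of gained, 32.7% of kept and 16.9% of all windows, and AGATAA in 8.48%, 10.5%, 5.95% and 11.2%. GAGGAAG varied little, at 15.2%, 15.8%, 13.7% and 13.6%, and TGANTCA stood in 7.88%, 5.26%, 4.85% and 7.81%. Windows that met only mixed regions held CGGAAG in 12.0% and TGTGGT in 15.9%. Those that met no region held them in 6.66% and 19.8%. Base composition moves with these shares: the median window had 13 CpG if lost, 10 if gained, 22 if kept, 11 if mixed and 3 without a region. The part of base composition in the motif shares was not tested.

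At these promoters the peaks were narrow or of unequal width. The Flt3 region (chr5:147400200-147400614) had no peak in either Smarca4 gRNA library, against 295 and 415 bp in empty libraries. Gp9 had none against 992 and 290 bp, and Clec4e none against 287 and 802 bp. Rgs13 had none against 235 and 323 bp, close to the narrowest peak of any list, 200 bp. The gained Tlr3 region had 263 and 444 bp in Smarca4 gRNA libraries and no peak in either empty library. In Utx KO cells both Smarca4 gRNA libraries and neither empty library had a peak at Tlr3. At Flt3, 1 Utx KO Smarca4 gRNA library and both Utx KO empty libraries had a peak. At Gp9, Clec4e and Rgs13 no Utx KO library had one, at Dpf1 all 4 did, and at Tcf7 only the 2 Utx KO empty libraries did.

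The Smarca4 gRNA lists were the shorter ones. They held 42015 and 46191 peaks and the empty lists 50845 and 50927, without overlap. The means were 44103 ± 2953 with Smarca4 gRNA and 50886 ± 58.0 with the empty construct (SD, n = 2 each), a difference of -13.3% (two-sided exact permutation p = 0.333, the smallest that 2 against 2 can give). The peaks covered 28.3 and 31.2 Mb in Smarca4 gRNA libraries and 30.5 and 34.3 Mb in empty libraries, which overlap (exact permutation p = 0.667). Median peak width was 509 and 505 bp in Smarca4 gRNA libraries and 441 and 499 bp in empty libraries. Peaks at gene ends (no more than 1 kb off) made up 28.6% and 27.2% in Smarca4 gRNA libraries, against 25.8% and 25.3% in empty libraries. Overlap of base pairs (Jaccard index) was 0.747 between the Smarca4 gRNA libraries and 0.734 between the empty libraries. It ran from 0.701 to 0.743 between groups, and the pair of Smarca4 gRNA replicate 2 and empty replicate 2 was more alike than the 2 empty libraries were.

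Losses outnumbered gains in the whole lists but only slightly at equal length. Of the 59756 regions, 3562 were lost (5.96%), nearest to 2767 genes, and 530 were gained (0.887%), nearest to 501 genes. Another 35366 (59.2%) were kept and 20298 were mixed. At equal list length 1341 of 51857 regions were lost (2.59%) and 1145 were gained (2.21%), so lost regions made up 53.9% of those lost or gained, against 87.0% in the whole lists. Of the whole-list losses 1056 (29.6%) were also lost at equal length, which is 78.7% of the losses there. Of the whole-list gains 378 (71.3%) were also gained at equal length, which is 33.0% of the gains there. The other 767 equal-length gains were not gained in the whole lists, and trimming removed wider peaks from the empty lists than from the Smarca4 gRNA lists. Leaving out Smarca4 gRNA replicate 1 gave 4908 lost and 3036 gained regions, and leaving out Smarca4 gRNA replicate 2 gave 6788 and 1760. Without empty replicate 1 the counts were 7411 and 1023, and without empty replicate 2 they were 7484 and 1565.

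Lost and gained peaks were narrow ones. Among the 43455 regions held by both empty libraries 8.2% were lost, but in the narrowest of 10 width bins of about equal region number (200 to 281 bp) the share was 40.9%, in the next 22.2% and in the third 9.78%. Above 1001 bp, in the 2 widest bins, 0 of 4331 and 0 of 4343 regions were lost. Gains had the same form: of the 37398 regions held by both Smarca4 gRNA libraries 1.42% were gained, 7.05% in the narrowest bin (200 to 294.5 bp) and 3.25% in the next. No region of the 3 widest bins was gained. Lost regions had a median merged width of 329 bp and gained regions 370 bp, against 741 bp for kept regions, which merge peaks of all 4 libraries.

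**Figure D1:**
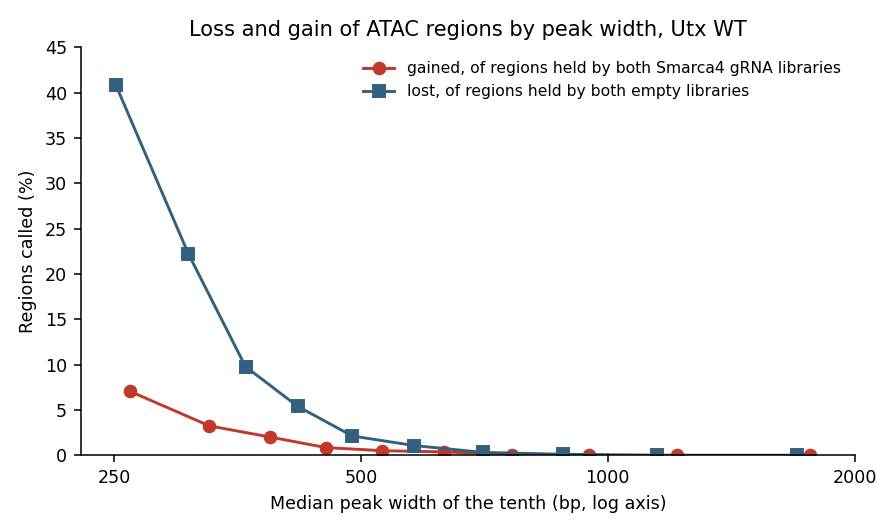
Percentage of regions gained (circles, of those held by both Smarca4 gRNA libraries) and lost (squares, of those held by both empty libraries) against the median peak width of each of 10 width bins of about equal region number in bp on a log axis. Both fall with width, the losses to 0.115% and the gains to 0 in bin 8 of 10.

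The widest lost and gained regions were no narrower than the median kept region. A stretch inside Efhd2, an actin-binding calcium sensor gene, had no peak in Smarca4 gRNA libraries and 1069 and 648 bp in empty libraries (chr4:141871623-141872691). The start of Kif7, a kinesin of Hedgehog signalling, had no peak against 679 and 1038 bp, and that of Gpr18, a G-protein coupled receptor, none against 711 and 934 bp. Regions nearest to Spocd1 (818 and 824 bp in empty libraries) and in Slc9a3r1 (707 and 880 bp) complete the 5. All 5 overlapped H3K4me1, and 4 overlapped PU.1. At Kif7 and Spocd1 all 4 Utx KO libraries had a peak. Of the 5 widest gains, Robo1, an axon guidance receptor, had 451 and 1026 bp in Smarca4 gRNA libraries and none in empty libraries. The region 442 bp from the start of Sox2, a pluripotency factor, had 621 and 780 bp against none. Eea1, an endosome tether, had 619 and 781 bp. A region 65268 bp from Mef2c, over an annotated start site, had 952 and 401 bp, and one 64844 bp from Slc44a3 516 and 764 bp. Of these 5 regions, 1 overlapped PU.1 and 3 overlapped H3K4me1.

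Genes with many regions led the counts. Gse1, a coregulator gene, had 8 lost and 0 gained of 49 regions, with 1 lost at equal list length. Runx1, the RUNX factor of blood stem cells, had 6 lost of 58 regions and Bcor, a Polycomb corepressor gene, 6 of 36, and 3 of each were lost at equal length. Trib2, a pseudokinase gene, had 6 of 27, Zswim6 6 of 22 and Slc24a3, an ion exchanger gene, 6 of 40, each with 2 at equal length. The 6 lost regions nearest to Runx1 were 204 to 426 bp wide in empty libraries. They lay inside the gene and 21802, 134845, 225269, 305312 (224 bp from an annotated start site) and 364907 bp away from it. None of them had a peak in a Utx KO Smarca4 gRNA library, and 2 of them had one in a Utx KO empty library. Gains led at Osbpl8, a lipid transfer gene, with 5 gained and 2 lost of 46 regions, and 4 gained at equal length. Csf2rb had 3 gained of 19 regions and 5 at equal length. Cenpl and Elavl1 had 2 gained regions each.

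Csf2rb and its neighbour Csf2rb2 encode the beta chains through which interleukin 3, interleukin 5 and granulocyte-macrophage colony-stimulating factor signal. Together they had 5 gained and 0 lost regions, all 5 also gained at equal length, and none of the 5 overlapped PU.1 or H3K4me1. Inside Csf2rb, one region had 254 and 387 bp and another 403 and 320 bp in Smarca4 gRNA libraries, with no peak in either empty library. A region 1810 bp beyond the gene had 877 and 381 bp against none. At Csf2rb2 the gained regions had 537 and 304 bp, and 274 and 248 bp, against none. In Utx KO cells 2 of these 5 regions were held by more Smarca4 gRNA than empty libraries, 1 by fewer and 2 by equal numbers.

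The same regions were then looked up in the Utx KO libraries, which the rule did not use. Regions lost in WT had a peak in 15.4% and 4.1% of cases in the Utx KO Smarca4 gRNA libraries, against 30.5% and 31.4% in the Utx KO empty libraries, a difference of -21.2 percentage points (exact permutation p = 0.333, n = 2 each). Over all regions the means were 50.9% with Smarca4 gRNA and 62.9% with the empty construct, so the Utx KO Smarca4 gRNA lists held a smaller share of all regions. Next the Utx KO lists were trimmed to 29930 peaks, the whole of Utx KO Smarca4 gRNA replicate 2, which kept its narrowest peaks. The Utx KO empty lists were cut from 40477 and 41024 peaks, and the part of this uneven trimming in the shares was not tested. Regions lost in WT at equal length were then held in 9.1% and 6.49% of cases with Smarca4 gRNA, against 15.5% and 16.0% with the empty construct. Regions gained in WT at equal length were held in 17.8% and 15.4% with Smarca4 gRNA, against 9.26% and 8.56% with the empty construct. The difference was -7.94 points for lost and 7.69 points for gained regions, without overlap between the groups (exact permutation p = 0.333 for each). Mixed regions, set beside them, averaged 11.4% with Smarca4 gRNA and 12.0% with the empty construct (exact permutation p = 1.0). Kept regions averaged 78.8% with Smarca4 gRNA and 81.1% with the empty construct, a difference of -2.30 points without overlap (exact permutation p = 0.333).

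**Figure D2:**
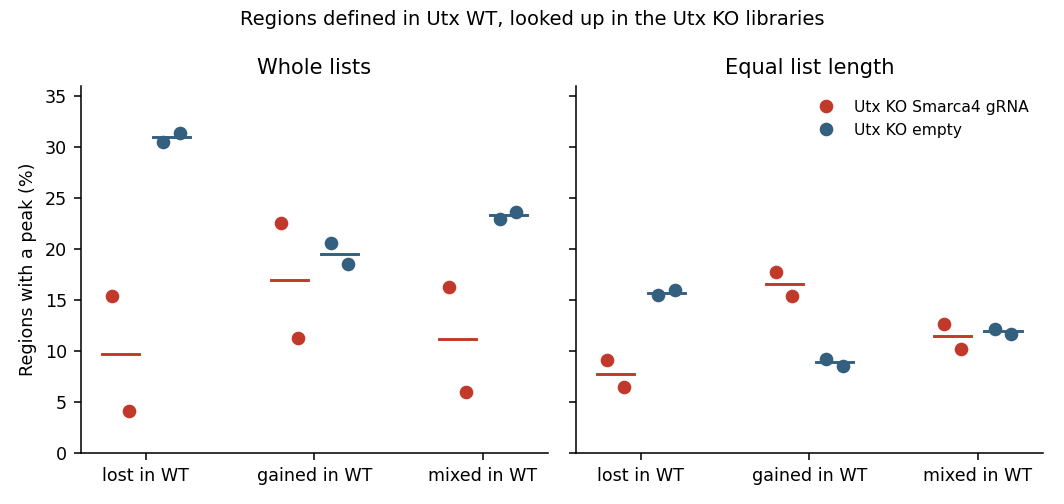
Percentage of regions called lost, gained or mixed in Utx WT that had a peak in each Utx KO library, with whole lists (left) and lists of equal length (right); points are libraries and lines their means. At equal length the Smarca4 gRNA libraries sit below the empty ones for lost regions (9.1% and 6.49% against 15.5% and 16.0%) and above them for gained regions (17.8% and 15.4% against 9.26% and 8.56%). The equal length is that of Utx KO Smarca4 gRNA replicate 2, which lost no peaks to trimming.

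In the whole lists the gained regions did not follow this order. They were held in 22.6% and 11.3% of cases with Smarca4 gRNA and 20.6% and 18.5% with the empty construct in Utx KO, a difference of -2.55 points with overlapping groups (exact permutation p = 1.0). Without Utx KO Smarca4 gRNA replicate 2, the shortest list of the set, the difference was 3.11 points. Of the 788 WT losses that both Utx KO empty libraries held, 424 (53.8%) were lost in Utx KO too, against 40.2% of mixed and 5.46% of kept regions. At equal length 64 of 137 (46.7%) were lost, against 26.7% of mixed regions. Of the 93 WT gains that both Utx KO Smarca4 gRNA libraries held at equal length, 37 (39.8%) were gained in Utx KO too, against 22.6% of mixed and 1.62% of kept regions. In the whole lists 4 of 51 WT gains (7.84%) were gained in Utx KO, against 5.34% of mixed regions, and of the 58 that both Utx KO empty libraries held 13 (22.4%) were lost there. Width differs between these classes, and its part in the shares was not tested. In the Chd4 set no such order was seen at equal length: lost regions averaged 10.1% with Chd4 gRNA and 12.5% with its empty construct, gained regions 17.7% and 19.4%, and both overlapped between groups (exact permutation p = 0.667 for each). In its whole lists lost regions averaged 9.6% with Chd4 gRNA and 21.5% with the empty construct, a difference of -11.9 points, and gained regions 19.6% and 31.4%, a difference of -11.8 points, both without overlap (exact permutation p = 0.333 for each). Its Chd4 gRNA replicate 2, with 24833 peaks, could not be brought to the common length and stayed whole.

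Lost and gained regions differed from kept ones in what else lay there. PU.1 islands present in all 3 WT libraries overlapped 40.1% of lost, 47.4% of gained and 69.4% of kept regions, and H3K4me1 islands present in both WT libraries 55.6%, 47.7% and 73.1%. Gene ends accounted for 9.71% of lost, 11.7% of gained and 31.9% of kept regions. Mixed regions overlapped PU.1 in 38.3% and H3K4me1 in 49.9% of cases. Kept regions are wider, which raises the chance of any overlap, and the labels of the ChIP libraries give no culture, which may differ.

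Regions were also compared at like width, with distal sites (over 1 kb from a gene end) divided by their marks. In the narrowest of 5 width bins (of about equal region number) of regions held by both empty libraries, 36.8% of 1597 distal sites with H3K4me1 but no PU.1 were lost, against 27.2% of 1071 with PU.1 but no H3K4me1. Sites with both marks lost 27.9%, those with neither 34.2% and gene ends 29.1%. The order was not the same in wider bins: in the third 1.77% of H3K4me1-only sites, 2.45% of gene ends and 1.88% of sites with neither mark were lost. Between H3K4me1-only and PU.1-only sites gains ran the other way in the narrowest bin held by both Smarca4 gRNA libraries, with 4.33% and 6.63% gained. Sites with neither mark gained 5.66%, those with both marks 4.46% and gene ends 5.57%. At equal list length, 288 H3K4me1-only sites were lost and 180 gained of 7218, and 103 PU.1-only sites were lost and 161 gained of 4172. H3K4me1-only sites thus had more losses than gains, 3.99% and 2.49%, and PU.1-only sites fewer, 2.47% and 3.86%. The other kinds also had more losses than gains: 3.85% and 3.14% with neither mark, 2.3% and 2.06% with both marks, 1.2% and 0.965% at gene ends. In the whole lists losses outnumbered gains at H3K4me1-only sites, 8.77% and 0.841%, and at PU.1-only sites, 6.8% and 1.62%. In Utx KO at equal length they did so too, 5.81% and 2.83% of H3K4me1-only and 4.25% and 3.15% of PU.1-only sites. The difference between kinds of site was not tested.

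Peak width in WT was set beside this. Over 32764 regions with exactly 1 peak in each library, log2 width was centred on each library's median. The median centred log2 width of 3924 H3K4me1-only distal sites was -0.34 and -0.31 in Smarca4 gRNA libraries and -0.29 and -0.28 in empty libraries. That of 2515 PU.1-only distal sites was -0.38 and -0.38 in Smarca4 gRNA libraries and -0.40 and -0.42 in empty libraries. The groups did not overlap in either, and the differences in median log2 width were -0.04 and 0.03 (exact permutation p = 0.333 for each, the smallest possible). Before centring the groups overlapped in both. Median widths were 439 and 475 bp against 453 and 518 bp at H3K4me1-only sites, and 425 and 452 bp against 418 and 470 bp at PU.1-only sites. The 4733 distal sites with neither mark had -0.49 and -0.46 in Smarca4 gRNA libraries and -0.46 and -0.44 in empty libraries, a difference of -0.03 without overlap (exact permutation p = 0.333), in the same direction as H3K4me1-only sites. Sites with both marks differed by -0.003 (exact permutation p = 1.0) and gene ends by 0.03 with overlapping groups (exact permutation p = 0.667). In Utx KO, over the 21856 regions with 1 peak in all 8 libraries, every distal kind had a lower median with Smarca4 gRNA. The difference was -0.08 for H3K4me1-only, -0.06 for PU.1-only, -0.13 for neither mark and -0.05 for both marks, and 0.06 for gene ends. Over these 21856 regions the WT difference was -0.03 for H3K4me1-only sites, with overlapping groups (exact permutation p = 0.667), and 0.04 for PU.1-only sites without overlap (exact permutation p = 0.333). For sites with neither mark it was -0.02, with overlapping groups.

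**Figure D3:**
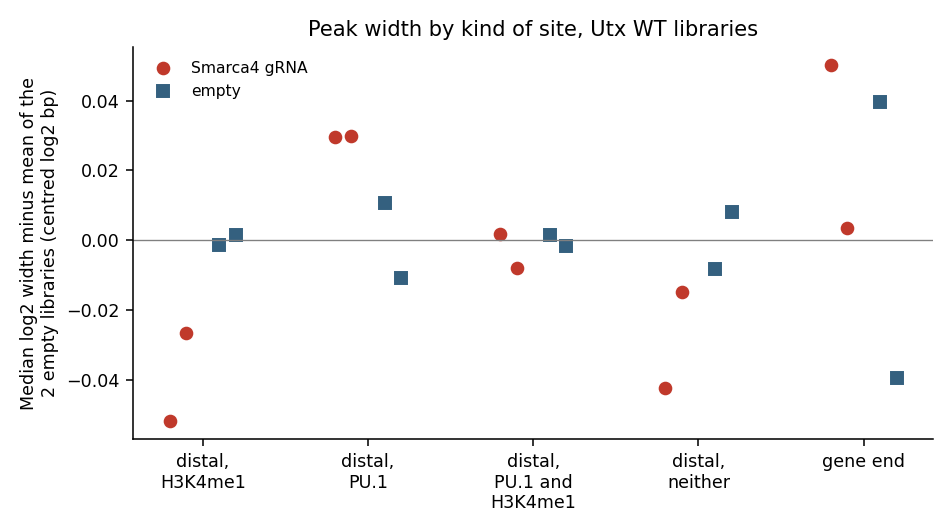
Median centred log2 peak width of each Utx WT library by kind of site, drawn as the difference from the mean of the 2 empty libraries; circles are Smarca4 gRNA and squares empty libraries. The Smarca4 gRNA libraries lie below the empty ones at distal sites with H3K4me1 only or neither mark, and above them at PU.1-only distal sites. Before centring the groups overlap at these sites.

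No single region passed the width test. With limma and Benjamini-Hochberg adjustment over 32764 regions, 0 were called at an adjusted p under 0.05 (0.0% wider and 0.0% narrower), and the smallest adjusted p was 0.195. At an unadjusted p under 0.05, 2491 regions (7.6%) stood out, 1062 wider (3.24%) and 1429 narrower (4.36%) with Smarca4 gRNA. Without centring they were 513 wider and 1644 narrower. In simulated data of this size the test recovered 0%, 34.0%, 82.0% and 100% of regions changed 1.5-, 2-, 4- and 8-fold in width. Leaving out 1 Smarca4 gRNA library gave calls, 604 without replicate 1 and 933 without replicate 2, where the lone library is assumed to vary like the 2 empty ones. The term for a different effect in Utx WT and Utx KO called 0 of 21856 regions by limma (0.0%), with 1414 at an unadjusted p under 0.05 (6.47%) and a smallest adjusted p of 0.0721.

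The regions with the smallest p had widths that did not overlap between groups. A region 1101 bp from Fam20b, a proteoglycan kinase gene, measured 347 and 341 bp in Smarca4 gRNA libraries and 1143 and 1159 bp in empty libraries (log2 -1.70 ± 0.15 SE). Both Utx KO empty libraries and neither Utx KO Smarca4 gRNA library had a peak there. A region 280540 bp from its nearest protein-coding gene Diras2, a small GTPase gene, lay 83 bp from an annotated start site. It measured 200 and 200 bp, the narrowest width in any list, against 633 and 837 bp. In the other direction Tspan14, a tetraspanin gene, had 873 and 1190 bp in Smarca4 gRNA libraries and 295 and 281 bp in empty libraries (log2 1.87 ± 0.20 SE). A region near Tespa1, a lymphocyte signalling gene, had 630 and 668 bp against 202 and 216 bp, and one in Epb41, the red cell skeleton protein 4.1 gene, 916 and 821 bp against 281 and 239 bp. In Utx KO the Epb41 region measured 213 bp and no peak with Smarca4 gRNA, against 213 and 232 bp with the empty construct. At Tespa1 1 Utx KO empty library had a peak, and at Diras2 and Tspan14 no Utx KO library had one. The limma adjusted p was 0.195 for each of these 5 regions.

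The regions picked out by width in WT were then measured in Utx KO, over regions with 1 peak in all 8 libraries. Of the 917 narrower ones in WT at an unadjusted p under 0.05, 68.3% were narrower in Utx KO too, against 45.3% of all 21856 regions. Of the 637 wider ones 61.5% were wider in Utx KO, against 54.7% of all. Among distal regions alone 77.4% of 583 narrower ones were narrower in Utx KO, against 56.7% of all 13181, and 53.6% of 390 wider ones were wider, against 43.3%. At gene ends 52.4% of 334 narrower ones were narrower in Utx KO, against 28.0% of all 8675, and 74.1% of 247 wider ones were wider, against 72.0%. The median change of the narrower regions was -0.47 in WT and -0.12 in Utx KO on the log2 width scale, and that of the wider regions 0.44 in WT and 0.05 in Utx KO. These counts are a description, since regions of a library share its depth.

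Some of the narrower regions lay at genes of GATA and ETS factors and of stem cell regulators, lists picked out here after their values were seen. At an unadjusted p under 0.05, 5 of 34 width-tested regions of GATA factors and cofactors were narrower (14.7%) and 1 wider, beside 4.36% and 3.24% of all regions. Stem and progenitor regulators had 13 of 142 narrower (9.15%) and 3 wider (2.11%), and ETS factors 11 of 106 narrower (10.4%) and 2 wider (1.89%). Shares of narrower regions were also above 4.36% at B cell genes, with 2 of 19 (10.5%), monocyte and macrophage genes, with 5 of 56 (8.93%), erythroid genes, with 4 of 48 (8.33%), and neutrophil genes, with 2 of 25 (8.0%). Megakaryocyte and platelet genes had 4 narrower (6.78%) and 6 wider (10.2%) of 59. None of these regions passed adjustment. Across the GATA, ETS and stem cell lists alone, counting a region once, 26 regions at 19 genes were narrower. In Utx KO, with an absent peak counted as 0 bp, 19 of the 26 (73.1%) had a lower mean width with Smarca4 gRNA, close to the 73.0% of all 32764 regions and 75.8% of the 1429 narrower ones. Without overlap it was lower at 13 (50.0%), against 35.9% of all and 45.7% of the narrower regions, and 13 of the 26 had no peak in at least 1 Utx KO library. The lists' median changes over all their tested regions were -0.05 for GATA, -0.03 for stem cell and 0.02 for ETS genes, against 0.01 for all regions.

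The promoter region of Gata1 (chrX:7967644-7968697), which spans the sequence printed above, measured 611 and 637 bp in Smarca4 gRNA libraries and 858 and 1054 bp in empty libraries. The groups did not overlap (log2 -0.56 ± 0.13 SE, limma adjusted p = 0.402). In Utx KO it measured 647 and 615 bp with Smarca4 gRNA and 972 and 1035 bp with the empty construct, again without overlap. A second region at Gata1 (chrX:7966165-7966589) was lost, with no peak against 345 and 263 bp, though not at equal length. The region 3' of it (chrX:7963854-7964671) measured 688 and 690 bp against 674 and 818 bp. Gata2, the GATA factor of stem and mast cells, had 0 lost of 11 regions. Inside it, 5847 bp from the start, 1 region measured 631 and 501 bp in Smarca4 gRNA libraries and 913 and 1192 bp in empty libraries (log2 -0.85 ± 0.18 SE, limma adjusted p = 0.361), while in Utx KO the groups overlapped at 1166 and 767 bp with Smarca4 gRNA and 873 and 1134 bp with the empty construct. Zfpm1 encodes FOG-1, the GATA-1 cofactor. One of its regions measured 526 and 659 bp against 802 and 879 bp in WT, and 561 and 580 bp against 632 and 698 bp in Utx KO. Gata3, the T cell factor, went the other way with 1364 and 1309 bp against 774 and 997 bp, but had 402 and 266 bp against 482 and 393 bp in Utx KO.

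Among ETS factors, which activate blood genes as PU.1 does, a region in Elf1 measured 269 and 350 bp in Smarca4 gRNA libraries and 778 and 764 bp in empty libraries (log2 -1.28 ± 0.19 SE, limma adjusted p = 0.195). No Utx KO library had a peak there. Erg and Fli1 each had 3 narrower regions. The one at a start of Erg measured 242 and 200 bp against 399 and 460 bp in WT, and 391 bp and no peak with Smarca4 gRNA against 511 and 555 bp with the empty construct in Utx KO. Fli1 and Etv6 also had 1 wider region each, 839 and 834 bp against 490 and 790 bp in Fli1 and 979 and 814 bp against 638 and 732 bp in Etv6. Spi1, which encodes PU.1, had 4 kept and 4 mixed regions, and its widest measured 2187 and 2562 bp in Smarca4 gRNA libraries and 2440 and 2384 bp in empty libraries.

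Among stem cell genes, a region in Runx1 (chr16:92785656-92787494) measured 1226 and 1500 bp in Smarca4 gRNA libraries and 1831 and 1836 bp in empty libraries. In Utx KO it measured 1142 and 1282 bp against 1901 and 2075 bp. Another Runx1 region was narrowed more. Over the 31 width-tested regions of Runx1 the log2 width change in WT ran from -0.91 to 0.26, with a median of -0.01. The order of the region above in Utx KO therefore does not speak for the other Runx1 regions. Ly6a, the gene of the stem cell antigen Sca-1, had 244 and 373 bp against 621 and 664 bp at its nearest region, and Msi2, an RNA-binding regulator of stem cells, 212 and 302 bp against 596 and 578 bp. In Utx KO the Ly6a groups overlapped and no library had a peak at the Msi2 region. Hoxb4 and Meis1, homeobox factors of self-renewal, had 1 wider region each, 396 and 340 bp against 212 and 252 bp for Hoxb4 and 881 and 1268 bp against 785 and 777 bp for Meis1. Kit, the stem cell factor receptor gene, had 4 lost and 0 gained of 36 regions, with 1 lost and 2 gained at equal length. A stretch inside the gene, 6950 bp from the start, measured 500 and 219 bp against 778 and 911 bp, but in Utx KO the groups overlapped at 1098 and 771 bp against 849 and 971 bp. Another Kit region (chr5:75623590-75624761) was wider in WT, with 1172 and 1059 bp against 885 and 855 bp.

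**Figure D4:**
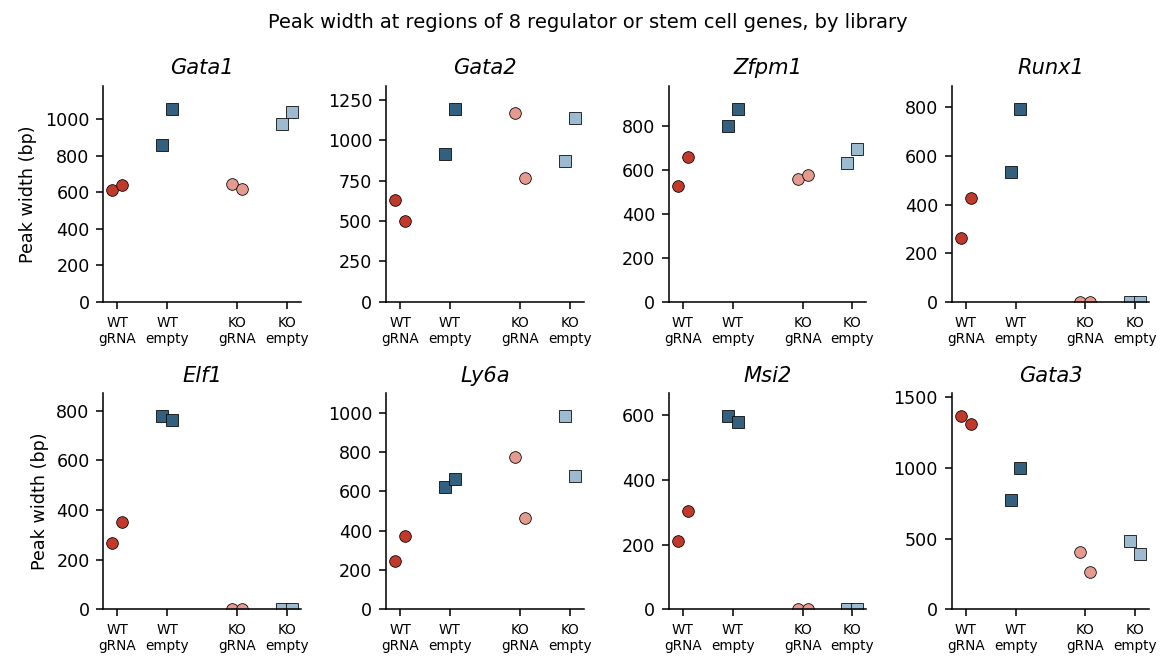
Peak width in bp of 1 region of each gene (the smallest p of its listed regions) in every library, with Smarca4 gRNA left of empty for Utx WT and then Utx KO; 0 means no peak. In WT the groups do not overlap in any of the 8 panels, 7 with narrower and Gata3 with wider peaks in Smarca4 gRNA libraries, and in Utx KO they keep that order without overlap at Gata1 and Zfpm1. The regions were picked by their WT p, which favours WT groups without overlap. Wider regions at Hoxb4, Meis1, Fli1 and Etv6 are not drawn. In Utx KO 35.9% of all width-tested regions, and 45.7% of those narrower in WT, were lower with Smarca4 gRNA without overlap.

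Counts of lost and gained regions by list stayed near the background in most lists. GATA factors and cofactors had 8 lost and 0 gained of 74 regions (10.8% lost, against 5.96% of all regions), at 6 of 8 genes, and 4 lost and 0 gained of 65 at equal list length (6.15%, against 2.59%), at 2 genes. In the whole lists Zfpm1 and Cbfa2t3, a corepressor partner, had 2 each. Stem and progenitor regulators had 19 lost and 0 gained of 276 (6.88%), at 9 genes, Meis1 with 3 and Mllt3 with 2 among them. At equal length they had 7 lost (2.93%, against 2.59% of all) and 3 gained (1.26%, against 2.21%) of 239. BAF subunit genes had 11 lost and 0 gained of 125 (8.8%) in the whole lists, 3 at Arid1b and 2 at Dpf1. At equal length they had 2 lost (1.9%) and 1 gained (0.952%) of 105. In the whole lists erythroid genes had 7 lost and 0 gained of 95, of which 4 lay around Bcl11a, the fetal globin repressor gene, 107948 to 525859 bp away. Proliferation and survival genes had 10 lost and 1 gained of 203, with 2 lost around Myc.

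Cytokine receptor and signalling genes had the most gains by count, 7 gained (3.04%, against 0.887% of all) and 8 lost of 230 regions. Of the 7, 5 lay at Csf2rb and Csf2rb2. At equal length the list had 12 gained (5.91%, against 2.21% of all) and 5 lost (2.46%, against 2.59%) of 203. By share in the whole lists, housekeeping genes had 2 gained of 61 (3.28%) and B cell genes 1 of 35 (2.86%). Mast cell and basophil genes had 11 lost (5.91%) and 3 gained (1.61%) of 186 regions. At equal length they had 4 lost (2.41%, against 2.59% of all) and 7 gained (4.22%, against 2.21%) of 166. In the whole lists neutrophil genes had 2 lost and 0 gained of 37, 1 of them inside Csf3r, the receptor of granulocyte colony-stimulating factor, with no peak against 304 and 375 bp. Monocyte and macrophage genes had 8 lost and 1 gained of 116, with 2 lost at Ccr2 and the single region of Clec4e lost. Megakaryocyte and platelet genes had 4 and 2 of 94, ETS factors 7 and 1 of 198, AP-1 factors 9 and 2 of 144, C/EBP and IRF factors 1 and 1 of 56, adhesion and migration genes 8 and 1 of 119, and housekeeping genes 3 lost of 61.

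Markers of cells that the labelled population should lack were held as well. B cell genes had peaks near 12 of 16 members, T and NK cell genes near 15 of 20 and stroma and endothelium genes near 12 of 16, and most regions of these lists were kept or mixed. Losses were 1 of 35 regions of B cell genes (2.86%), 6 of 66 of T and NK cell genes (9.09%) and 7 of 85 of stroma and endothelium genes (8.24%), against 5.96% of all, and the 1 gain was at a B cell gene. The only region of Cd3e, a T cell receptor chain gene, was lost at both list lengths. A nearest peak does not show that a gene is expressed, and fewer cells of a kind cannot be told apart from fewer open copies per cell. At equal length T and NK cell genes had 5 lost and 0 gained of 58 regions (8.62% lost, against 2.59% of all), B cell genes 0 and 1 of 28, and stroma and endothelium genes 1 and 2 of 68. The part of cell mixture in the other lists was not tested.

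**Figure D5:**
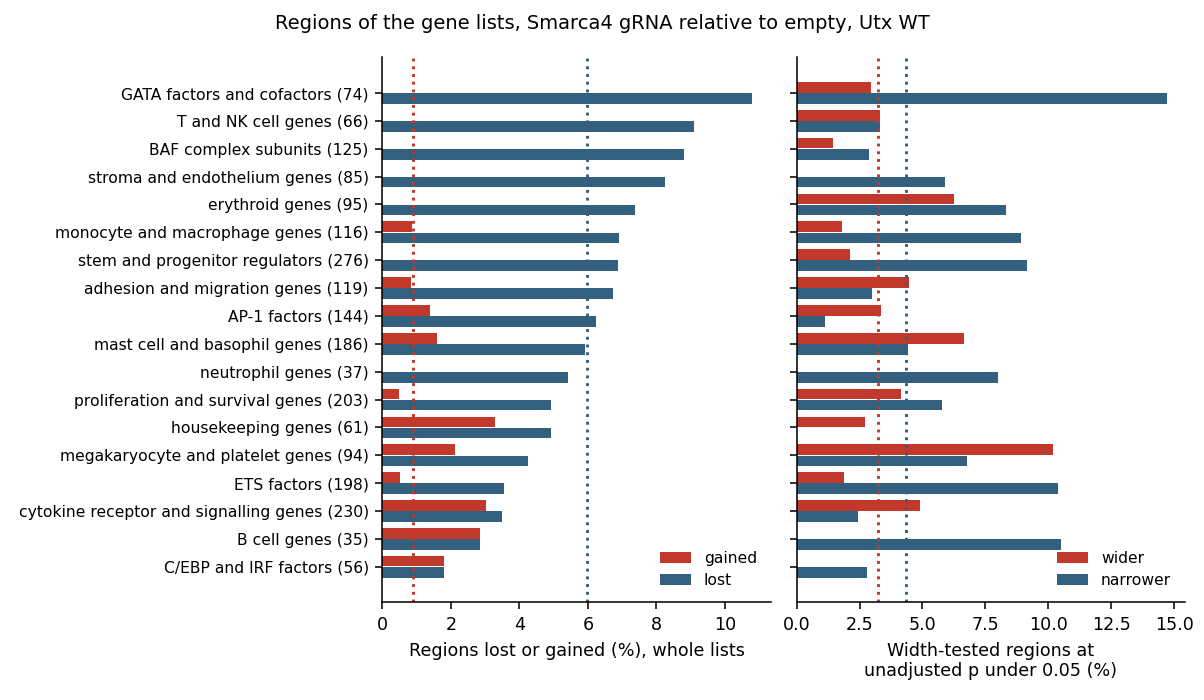
For each gene list (number of regions in brackets), the percentage of regions gained and lost in the whole lists (left) and of width-tested regions wider and narrower with Smarca4 gRNA at an unadjusted p under 0.05 (right); dotted lines mark the values over all regions, 0.887% and 5.96% on the left and 3.24% and 4.36% on the right. GATA factors and cofactors stand highest for lost (10.8%) and narrower (14.7%) regions, which are 8 and 5 regions, and cytokine receptor genes are above the dotted line for gains (3.04%), as are housekeeping genes (3.28%).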

How the data were processed

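ATAC-seq peak lists of set B (4 Utx WT and 4 Utx KO libraries) and of the Chd4 set (4) were used as the authors deposited them: start and end of each interval, with no score, count or signal, on mm10. Per the submitters' processing notes Bowtie, Bowtie2, SICER and MACS2 were used; roles, versions and parameters are not given in the sources used here. Depth is therefore unknown, and no interval or detection limit is given for a library. The WT ChIP lists served for overlap only (at least 1 bp). The other values of the deposited lists were not used.

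Peaks were merged where they overlapped or touched. Each region took the closest protein-coding gene of 21900 (RefSeq, GRCm38.p6), and promoter windows were read from a RefSeq table that holds 32851 start sites, for 17492 of these genes. Of 337 list entries 336 matched. Equal list length keeps the 42015 widest peaks of each list, with ties in list order. Peak width was tested with limma 3.58.1 (trend) on median-centred log2 width computed from the deposited intervals, with Benjamini-Hochberg adjustment, and the code was tested on simulated data with 50 regions per fold. Values per library were tested by exact permutation, two-sided. The replicate numbers were not used as pairs: deviations of same-numbered libraries correlated at r = 0.031 over 32764 regions. Python 3.11.15, pandas 2.3.3, numpy 2.4.6, scipy 1.17.1 and R 4.3.3 were used. Members, lists and tests were chosen with earlier results of these data known. Named genes were Smarca4, Smarca2, Arid1a, Kdm6a, Spi1, Gata1, Gata2, Myc and Kit, the 6 genes with most lost and most gained regions, the 5 widest lost and gained regions, the 3 smallest width p in each direction, and up to 3 lost and 2 gained genes per list; regions of list genes at an unadjusted p under 0.05 were added after their values were seen. Alternatives were the upper 50% of each list, equal length, 50% cover, merging up to 200 bp apart, autosomes only, each library left out, a replicate block, other width scalings and regions within 50 kb of a gene. A few of the genes so named are not reported here.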

Additional observations from a re-analysis of the deposited data

How the results depend on the processing

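Lost and gained regions numbered 1341 and 1145 at equal list length, and 1555 and 201 in the upper 50% of each list by width, with 18082 kept. Leaving out 1 library gave 4908 to 7484 lost and 1023 to 3036 gained regions, since 3 libraries meet the rule more easily, and 36078 to 38681 kept. The replicate block, as the pair of number 1 alone, gave 11667 lost and 3446 gained regions, and the pair of number 2 gave 9341 and 4329; with the block limma called 0 regions of changed width. Leaving out 1 library gave 0 to 933 such regions, with 604 and 933 when a Smarca4 gRNA library was left out. The share of gained regions held in Utx KO, with Smarca4 gRNA minus empty, was 7.69 points at equal length and 3.11 points without Utx KO Smarca4 gRNA replicate 2, against -2.55 points, and leaving out each Utx KO library gave -8.21 to 3.11 points. The cause was not tested. For lost regions the same difference was -26.8 to -15.5 points with each Utx KO library left out. Of lost regions 42.3% overlapped PU.1, 60.5% H3K4me1 and 11.7% a gene end at equal length, and 53.5% and 68.7% any PU.1 or H3K4me1 island and 28.3% a gene end within 5 kb. Of gained regions 52.4% overlapped H3K4me1 at equal length, and 55.7% and 65.7% any PU.1 or H3K4me1 island and 35.8% a gene end within 5 kb. At list genes 48 regions were lost and 52 gained at equal length, against 127 and 22. Merging up to 200 bp apart, 50% cover and autosomes only kept the counts of lost, gained and kept regions within 1.5 times. With 2 libraries a group and no counts, a narrow peak that is absent from a list cannot be told from one just under the peak caller's threshold.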
